A study of Homo sapiens with 16 samples.

Results

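The subject is the transcripts of the 8 subunits of condensin I and condensin II in SAOS osteosarcoma cells given RB, SMYD2 or both. The genes are NCAPD2, NCAPG and NCAPH of condensin I, NCAPD3, NCAPG2 and NCAPH2 of condensin II, and SMC2 and SMC4, which both complexes share. They were read through every probe set whose only gene symbol in the platform annotation is one of these names, which gave 16 of the 54675 probe sets on the array. Condensin I subunits had 4 of them, condensin II subunits 7 and the SMC genes 5.

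Condensins are ring-shaped motors that pull DNA into loops and so compact chromosomes for mitosis. SMC2 and SMC4 are ATPases whose long arms form the ring, a kleisin subunit (NCAPH or NCAPH2) closes it, and a pair of HEAT-repeat subunits (NCAPD2 with NCAPG, or NCAPD3 with NCAPG2) hold the DNA. Condensin I reaches chromosomes once the nuclear envelope has broken down, whereas condensin II is nuclear throughout the cell cycle. RB, the retinoblastoma protein, restrains the E2F transcription factors, and it also binds condensin II through NCAPD3.

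RNA was measured on 16 arrays, 4 per group, each group with the replicate numbers 1, 3, 4 and 5. The groups were cells transiently transfected with human RB1 and mouse SMYD2 (RB plus SMYD2), cells transfected with human RB1 (RB), cells transfected with mouse SMYD2 (SMYD2), and untransfected cells of wild-type genotype (control). All were SAOS, an established human osteosarcoma line known to lack functional RB, and RB1 was added only in the RB plus SMYD2 and RB groups. SMYD2 is a lysine methyltransferase that can methylate RB, and the series title asks what its overexpression does to ectopic RB. The labels name no empty-vector arm, no time after transfection and no share of transfected cells, so a difference from control includes transfection itself. The labels do not say whether the 4 arrays of a group were separate cultures. The p-values cover the spread between these arrays, which may be technical.

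All levels are log2 signals of the deposited table, and all differences are on that log2 scale, with the standard error of the fit. The array medians lay between 5.59 and 5.64. Osteoblast markers were high: RUNX2 read 12.4, ALPL 12.1, COL1A1 13.5 and IBSP 12.7 on average over the 16 arrays, although SPP1 read only 5.62. The 5 blood markers read 3.82 (PTPRC, the pan-leukocyte marker), 4.59 (CD14), 5.72 (CD3E), 6.33 (ITGAM) and 6.62 (HBB). Of the 7 epithelial or endothelial markers, CDH1, the epithelial cadherin, was the lowest at 4.11. PECAM1 read 6.24 and EPCAM, the highest of them, 9.40. None of the 5 blood and 7 epithelial or endothelial markers passed the test in any of the 7 comparisons. The transfected RB was visible in the brighter RB1 probe set, at 7.90, 7.90, 9.25 and 9.62 with RB plus SMYD2 and 7.40, 7.43, 8.10 and 7.87 with RB, against 6.89, 6.59, 6.98 and 6.92 with SMYD2 and 6.24, 6.49, 6.27 and 6.93 in control. The other RB1 probe set stayed at 3.33 to 3.58 on all arrays. The brightest human SMYD2 probe set read 10.18 ± 0.02 with RB plus SMYD2, 10.05 ± 0.14 with RB, 10.28 ± 0.07 with SMYD2 and 10.16 ± 0.05 in control (SD, n = 4 each), and it may not bind the transfected mouse SMYD2, so it does not check that construct. SMYD2 array 1 stood apart: the ACTB probe sets for the 3′ and 5′ ends, which track RNA integrity, were 3.53 apart there, against 0.54 to 2.46 on the other 15 arrays. The same GAPDH gap was 0.16 there, against -0.01 to 0.10 on the others. Comparisons that use the SMYD2 arrays are therefore also given without SMYD2 array 1, for the genes or the median it moved most. The 2.46 was on control array 1, against 0.54 to 1.02 on the other control arrays. The mean of the 8 condensin genes was 9.95 on control array 1, against 10.11 to 10.15 on the other control arrays. The part of RNA integrity in any comparison was not tested.

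The promoters of the members are shown because their transcripts moved together. The RefSeq promoter table (GRCh38.p14) held 10 windows for 7 of the 8 genes, each from 250 bases before to 50 after an annotated start. They were searched on both strands for the cell cycle homology region (CHR, TTTGAA), which the MuvB complexes of cell cycle genes bind, for the CCAAT box (CCAAT) and for an E2F site in 4 spellings (TTTCCCG and then TTTGGCG and then TTTCGCG and then TTTGCCG). A CHR spelling lay in 6 of the 10 windows and in 6 of the 7 genes, compared with 15.2% of all 35116 windows and 18.2% of the genes in the table. CCAAT lay in 3 of the 10 windows, compared with 34.6% of all windows, and an E2F spelling in 1 of the 10, compared with 8.67%. No matches overlapped. The windows below show a condensin I HEAT subunit with CHR and CCAAT (NCAPD2, chr12:6493852-6494151, plus strand), a second condensin I subunit with CHR close to its start (NCAPG, chr4:17810729-17811028, plus strand), the subunit through which RB binds condensin II (NCAPD3, chr11:134223918-134224217, minus strand) and a subunit of both complexes (SMC4, chr3:160399400-160399699, plus strand). Capitals mark the matches, and every sequence runs 5′ to 3′ on the strand of its gene.
NCAPD2: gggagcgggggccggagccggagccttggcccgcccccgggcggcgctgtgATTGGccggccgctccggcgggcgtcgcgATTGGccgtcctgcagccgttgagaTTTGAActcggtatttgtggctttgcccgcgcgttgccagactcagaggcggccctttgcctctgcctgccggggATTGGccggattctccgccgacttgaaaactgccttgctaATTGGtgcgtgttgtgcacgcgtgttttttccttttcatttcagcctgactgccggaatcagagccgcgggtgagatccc
NCAPG: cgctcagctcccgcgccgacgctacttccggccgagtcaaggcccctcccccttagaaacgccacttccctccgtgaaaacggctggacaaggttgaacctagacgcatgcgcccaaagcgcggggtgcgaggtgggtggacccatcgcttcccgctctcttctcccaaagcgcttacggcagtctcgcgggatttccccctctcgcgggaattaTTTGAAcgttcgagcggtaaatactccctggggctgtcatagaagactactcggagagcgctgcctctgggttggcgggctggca
NCAPD3: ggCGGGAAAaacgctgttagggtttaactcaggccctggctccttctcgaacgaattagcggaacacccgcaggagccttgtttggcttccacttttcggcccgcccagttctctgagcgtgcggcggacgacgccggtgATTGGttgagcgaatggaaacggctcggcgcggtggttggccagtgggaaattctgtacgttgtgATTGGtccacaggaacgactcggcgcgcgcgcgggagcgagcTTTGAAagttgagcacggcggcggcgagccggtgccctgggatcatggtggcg
SMC4: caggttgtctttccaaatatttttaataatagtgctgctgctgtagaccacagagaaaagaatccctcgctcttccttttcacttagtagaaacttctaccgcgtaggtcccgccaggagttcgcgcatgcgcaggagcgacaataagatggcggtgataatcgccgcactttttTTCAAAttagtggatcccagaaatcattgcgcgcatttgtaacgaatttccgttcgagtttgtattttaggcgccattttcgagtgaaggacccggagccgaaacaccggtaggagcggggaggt

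In NCAPD2 the CHR match begins at position -145 from the start, among 4 CCAAT matches on the opposite strand. The CHR of NCAPG begins at -35, and that of SMC4 lies on the opposite strand and begins at -75. In NCAPD3 the CHR spans the start itself, and the E2F spelling lies at the far upstream end of the window. SMC2 and NCAPG2 each held 1 CHR match as well, the NCAPH window held a CCAAT box alone, and the second windows of NCAPD3, SMC2 and SMC4 held none of these motifs. A match is a description of these letters and was not tested as a site.

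The effect of added RB was read first, from RB against control. Condensin transcripts were lower with RB as a group: 7 of the 8 genes fell, where 1.71% of all 19775 genes were called lower, and the 4 RB arrays lay below the 4 control arrays for 8 of 8 genes, where 5.2% of all genes did so. Their median difference was -0.64, against 0.01 for all genes. In RNA of whole cultures, fewer cells in the phase that uses a gene and less RNA per cell cannot be told apart.

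Among the condensin I subunits, the HEAT-repeat subunit gene NCAPD2 read 10.47, 10.12, 10.16 and 10.25 on the RB arrays, against 10.95, 11.09, 11.11 and 11.01 on the control arrays. It fell by 0.79 ± 0.10, which is 1.73-fold (limma adjusted p = 0.000408). The highest RB array lay well under the lowest control array. NCAPG, the other HEAT-repeat subunit of condensin I, read 10.07, 10.09, 9.93 and 9.98 with RB, against 10.66, 10.74, 10.83 and 10.71 in control, and fell by 0.72 ± 0.10 (limma adjusted p = 0.000766). NCAPH, the condensin I kleisin, read 9.08, 9.11, 8.86 and 8.92 with RB, against 9.63, 9.75, 9.72 and 9.77 in control, and fell by 0.72 ± 0.11 (limma adjusted p = 0.00182). All 3 subunits were thus lower by 1.64-fold to 1.73-fold, without overlap of the arrays.

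The condensin II subunits fell as well. NCAPD3, the RB-binding HEAT-repeat subunit, read 9.00, 9.03, 9.02 and 9.05 with RB, against 9.48, 9.45, 9.53 and 9.55 in control, and fell by 0.48 ± 0.08 (limma adjusted p = 0.00230). Its RB arrays had an SD of 0.02, the smallest of any group among the brightest probe sets. NCAPG2, its HEAT-repeat partner, read 8.97, 9.16, 8.91 and 8.98 with RB, against 9.46, 9.64, 9.72 and 9.65 in control, and fell by 0.61 ± 0.12 (limma adjusted p = 0.00911). NCAPH2, the condensin II kleisin, read 7.91, 8.07, 8.20 and 8.05 with RB, against 8.30, 8.54, 8.44 and 8.52 in control, and fell by 0.39 ± 0.09 (limma adjusted p = 0.0195). That decrease, 1.31-fold, was the smallest of the 8, and NCAPH2 was no longer called in 5 of the 16 fits that each omit an array (limma adjusted p at most 0.0762, when control array 5 was omitted).

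The shared ATPase subunits were lower too, with wider errors. SMC2 read 9.07, 9.09, 9.03 and 8.90 with RB, against 9.46, 9.70, 9.83 and 9.75 in control, and fell by 0.67 ± 0.17 (limma adjusted p = 0.0420). SMC4 read 11.39, 11.37, 11.36 and 11.26 with RB, against 11.67, 11.96, 12.02 and 11.95 in control, a difference of -0.56 ± 0.16 that did not pass (limma adjusted p = 0.0747). In neither gene did the RB and control arrays overlap. The spread that enters this fit comes from all 4 groups, and SMYD2 array 1 was far from its group in both SMC genes. Without that array the error fell to 0.10 for SMC2 and 0.09 for SMC4, and both were called (limma adjusted p = 0.000882 and 0.00159), as were all 8 genes, where 2.71% of all genes were called lower in that fit. SMC4 was also called with the replicate block (limma adjusted p = 0.0141). Of the 16 fits that each omit an array, only that without SMYD2 array 1 called it (limma adjusted p at most 0.210 in the others). SMC2 was not called in 11 of the 16 fits that each omit an array (limma adjusted p at most 0.141, when control array 4 was omitted).

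**Figure D1:**
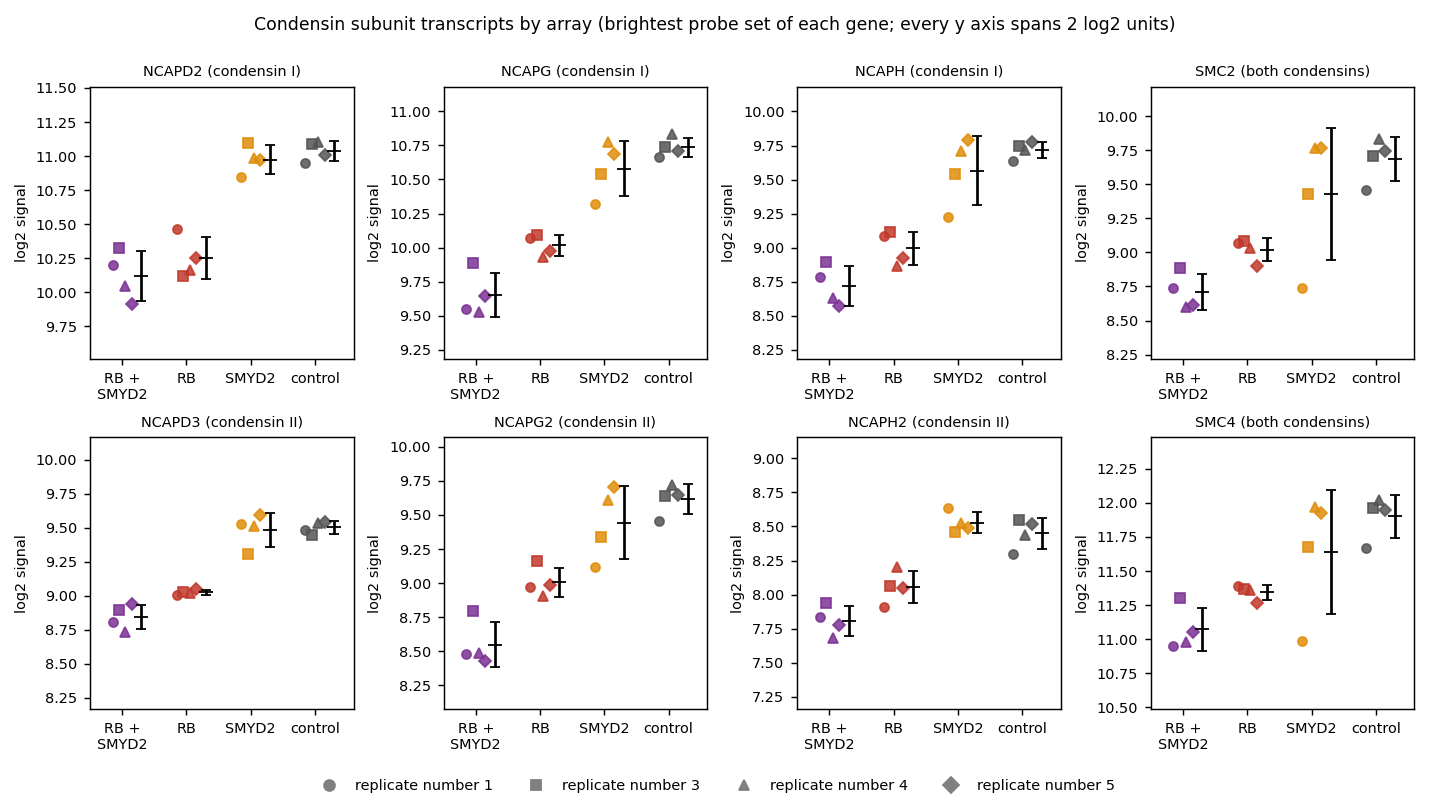
Log2 signal (y axis) of the brightest probe set of each condensin gene on every array, by group (x axis: RB plus SMYD2, RB, SMYD2, control), with marker shape for the replicate number and a bar for the mean ± SD of 4 arrays. The RB and RB plus SMYD2 arrays lie under the control arrays in every panel, and SMYD2 array 1 is far below the other SMYD2 arrays for SMC2 (8.74) and SMC4 (10.99).

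Condensin I subunits had differences of -0.79 to -0.72 between RB and control, and condensin II subunits of -0.61 to -0.39. The 95% intervals of NCAPG2 (-0.87 to -0.36) and NCAPG (-0.93 to -0.51) overlap. Those of NCAPH2 (-0.58 to -0.21) and NCAPD2 (-0.99 to -0.58) do not, by a narrow margin. That pair holds the smallest and the largest of these differences, so its separation does not describe the complexes as wholes. The condensin I mean minus the condensin II mean was 1.25, 1.03, 0.94 and 1.02 on the RB arrays, against 1.34, 1.32, 1.32 and 1.26 on the control arrays. The RB arrays all lay lower, but the highest of them, 1.25, only just. With SMYD2 present the same measure overlapped, at 1.00 to 1.16 with RB plus SMYD2 against 1.04 to 1.36 with SMYD2. How often such a measure lies apart over all genes was not computed. No test was made between the complexes. On single RB arrays the mean of the 3 condensin I subunits, taken relative to the control mean, was -0.84 to -0.62. For condensin II it was -0.56 to -0.44.

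The same question was asked in cells that also received SMYD2, through RB plus SMYD2 against SMYD2. All 8 condensin genes fell, where 4.25% of all genes were called lower, with a median of -0.78. NCAPG fell by 0.93 ± 0.10 (1.90-fold), NCAPG2 by 0.89 ± 0.12, NCAPD2 by 0.85 ± 0.10 and NCAPH by 0.85 ± 0.11 (limma adjusted p from 1.64e-05 to 0.000135). For NCAPG the arrays read 9.55, 9.89, 9.53 and 9.64 with RB plus SMYD2, against 10.32, 10.54, 10.78 and 10.69 with SMYD2. NCAPG2 read 8.48, 8.80, 8.49 and 8.43 with RB plus SMYD2, against 9.12, 9.34, 9.61 and 9.70 with SMYD2. The groups did not overlap for 6 of the 8 genes, where 6.61% of all genes lay lower without overlap.

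The kleisin NCAPH2 read 7.84, 7.94, 7.68 and 7.77 with RB plus SMYD2, against 8.63, 8.46, 8.52 and 8.49 with SMYD2, and fell by 0.72 ± 0.09 (limma adjusted p = 5.23e-05). NCAPD3 read 8.81, 8.90, 8.74 and 8.94 with RB plus SMYD2, against 9.52, 9.31, 9.51 and 9.60 with SMYD2, and fell by 0.64 ± 0.08 (limma adjusted p = 4.70e-05). On their brightest sets these condensin II genes were apart from SMYD2 on every array, SMYD2 array 1 included. The other NCAPH2 sets differed less and did not pass. The sets 227076_at (-0.57 ± 0.17), 40640_at (-0.14 ± 0.09) and 221633_at (-0.17 ± 0.10) had overlapping arrays, while 209718_at (-0.12 ± 0.08) did not. Among the 8 genes on their brightest sets, the SMC genes were the ones that overlapped. SMC2 read 8.74, 8.88, 8.60 and 8.61 with RB plus SMYD2, against 8.74, 9.43, 9.77 and 9.77 with SMYD2, and fell by 0.72 ± 0.17 (limma adjusted p = 0.0139). SMC4 read 10.95, 11.30, 10.98 and 11.06 with RB plus SMYD2, against 10.99, 11.67, 11.97 and 11.93 with SMYD2, and fell by 0.57 ± 0.16 (limma adjusted p = 0.0378). SMYD2 array 1, with its high ACTB 3′ minus 5′ signal, is the low SMYD2 array in both genes. Without it SMC2 fell by 0.95 ± 0.11 and SMC4 by 0.78 ± 0.10 (limma adjusted p = 2.50e-05 and 5.79e-05). All 8 genes were called in that fit too, where 4.82% of all genes were called lower, with a median of -0.92, against -0.78 with all arrays. Of the 16 fits that each omit an array, 8 did not call SMC4 and 3 did not call SMC2 (limma adjusted p at most 0.114, when SMYD2 array 4 was omitted, and 0.0521, when RB plus SMYD2 array 4 was).

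RB plus SMYD2 against control combined both constructs, and it shares its arrays with the comparisons above. All 8 genes fell, where 4.2% of all genes were called lower, and the groups overlapped for none of the 8, where 7.79% of all genes lay lower without overlap. NCAPG and NCAPG2 fell by 1.08 ± 0.10 and 1.07 ± 0.12, which is 2.12-fold and 2.10-fold (limma adjusted p = 3.53e-06 and 2.24e-05). NCAPH fell by 1.00 ± 0.11, SMC2 by 0.98 ± 0.17, NCAPD2 by 0.92 ± 0.10 and SMC4 by 0.83 ± 0.16. NCAPD3 and NCAPH2 fell by 0.66 ± 0.08 and 0.64 ± 0.09. These 8 calls held in each of the 16 fits that omit an array.

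RB against SMYD2 set transfected cells against transfected cells. Here 5 of the 8 genes fell, where 1.86% of all genes were called lower: NCAPD2 by 0.72 ± 0.10, NCAPH by 0.57 ± 0.11, NCAPG by 0.56 ± 0.10, NCAPH2 by 0.47 ± 0.09 and NCAPD3 by 0.46 ± 0.08 (limma adjusted p from 0.000579 to 0.00919). NCAPG2, SMC2 and SMC4 differed by -0.44 ± 0.12, -0.41 ± 0.17 and -0.30 ± 0.16 and did not pass (limma adjusted p = 0.0573, 0.239 and 0.384). Without SMYD2 array 1 all 8 fell, by 0.43 to 0.77, where 2.37% of all genes were called lower. SMC2 then fell by 0.63 ± 0.11 and SMC4 by 0.51 ± 0.10.

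**Figure D2:**
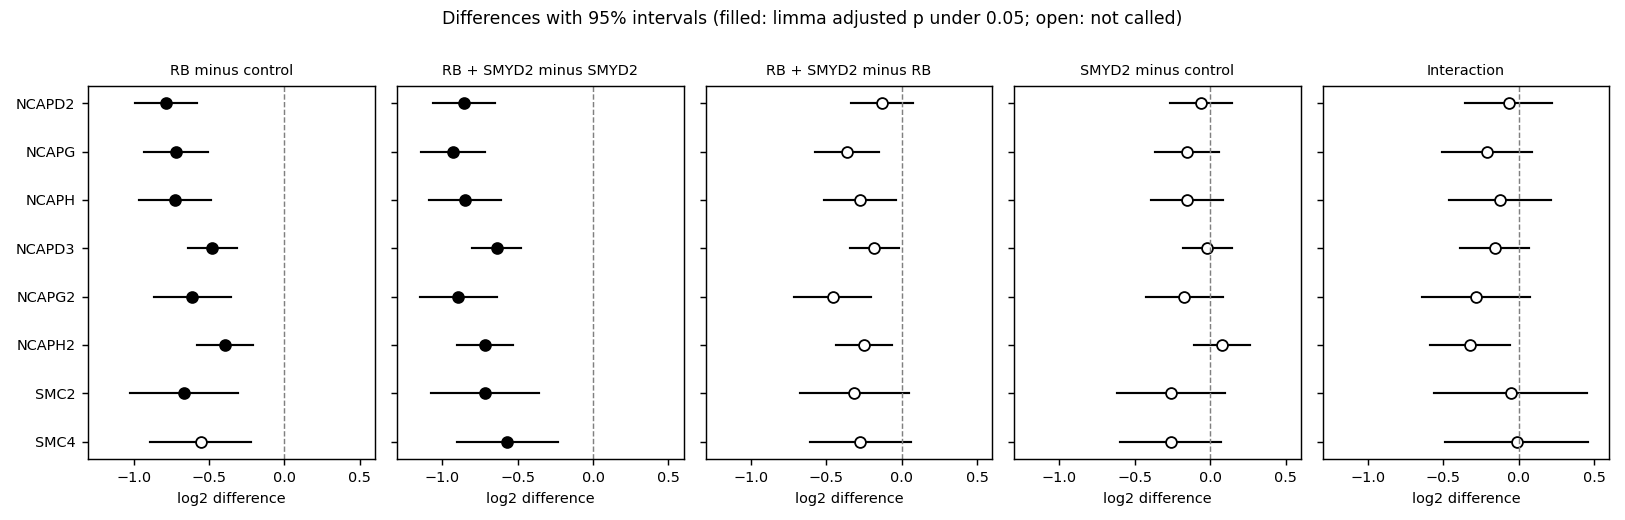
Log2 differences (x axis) of the 8 condensin genes (y axis) in 4 comparisons and the interaction, with 95% intervals of the limma fit. Filled points passed at an adjusted p under 0.05, as did 7 genes for RB minus control and 8 for RB plus SMYD2 minus SMYD2, and no point is filled in the other panels.

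The series title asks about SMYD2 in the presence of ectopic RB, which is RB plus SMYD2 against RB. All 8 condensin genes had negative differences, where 48.1% of all genes did, with a median of -0.27 against 0.00 for all genes, but none passed. Limma called 0 of the 8 and 0 of the 19775 genes, without and with the replicate block. At an unadjusted p under 0.05 it took 5 of the 8 and 856 of all genes. The groups lay apart, lower with RB plus SMYD2, for 4 of the 8 genes, where 1.98% of all genes did so.

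Those 4 genes were NCAPG2, NCAPG, SMC2 and NCAPD3. NCAPG2 read 8.48, 8.80, 8.49 and 8.43 with RB plus SMYD2, against 8.97, 9.16, 8.91 and 8.98 with RB. The difference was -0.46 ± 0.12 (95% interval -0.71 to -0.20, limma adjusted p = 0.685). NCAPG read 9.55, 9.89, 9.53 and 9.64 with RB plus SMYD2, against 10.07, 10.09, 9.93 and 9.98 with RB, a difference of -0.37 ± 0.10. SMC2 differed by -0.31 ± 0.17 and NCAPD3 by -0.18 ± 0.08. These 4 are named for lying apart, which with 4 arrays against 4 fixes the exact permutation p at its smallest value, 0.0286, so that p adds nothing.

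NCAPH, SMC4 and NCAPH2 differed by -0.28 ± 0.11, -0.27 ± 0.16 and -0.25 ± 0.09, with overlapping arrays (exact two-sided permutation p = 0.0571 for each). Same-numbered arrays were lower with RB plus SMYD2 than with RB in 4 of 4 cases for 7 of the 8 genes, all but NCAPD2. The share of all genes that did so was not counted. Several members moved together inside groups, so these 7 are not separate observations. NCAPD2 differed by -0.13 ± 0.10 (95% interval -0.34 to 0.07), with 10.20, 10.33, 10.04 and 9.91 with RB plus SMYD2, against 10.47, 10.12, 10.16 and 10.25 with RB. Array 3 was higher with RB plus SMYD2 there. RB1 itself differed by 0.97 ± 0.31 (limma adjusted p = 0.880), and its signal was highest on the RB plus SMYD2 arrays 4 and 5. Its part in these differences was not tested. Relative to control, the mean of the 3 condensin II subunits was -0.89 to -0.65 on the RB plus SMYD2 arrays, against -0.56 to -0.44 on the RB arrays. For condensin I these values were -1.12 to -0.80 with RB plus SMYD2, against -0.84 to -0.62 with RB, and for the SMC genes -1.003 to -0.703 with RB plus SMYD2, against -0.712 to -0.565 with RB. The arrays lay apart for condensin II, overlapped for condensin I and overlapped slightly for the SMC genes. How often such means lie apart over all genes was not computed. The condensin II mean takes NCAPH2 from its brightest probe set, whose own arrays overlapped. The 3 dimmest NCAPH2 sets differed by 0.03, 0.05 and 0.10 between RB plus SMYD2 and RB.

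**Figure D3:**
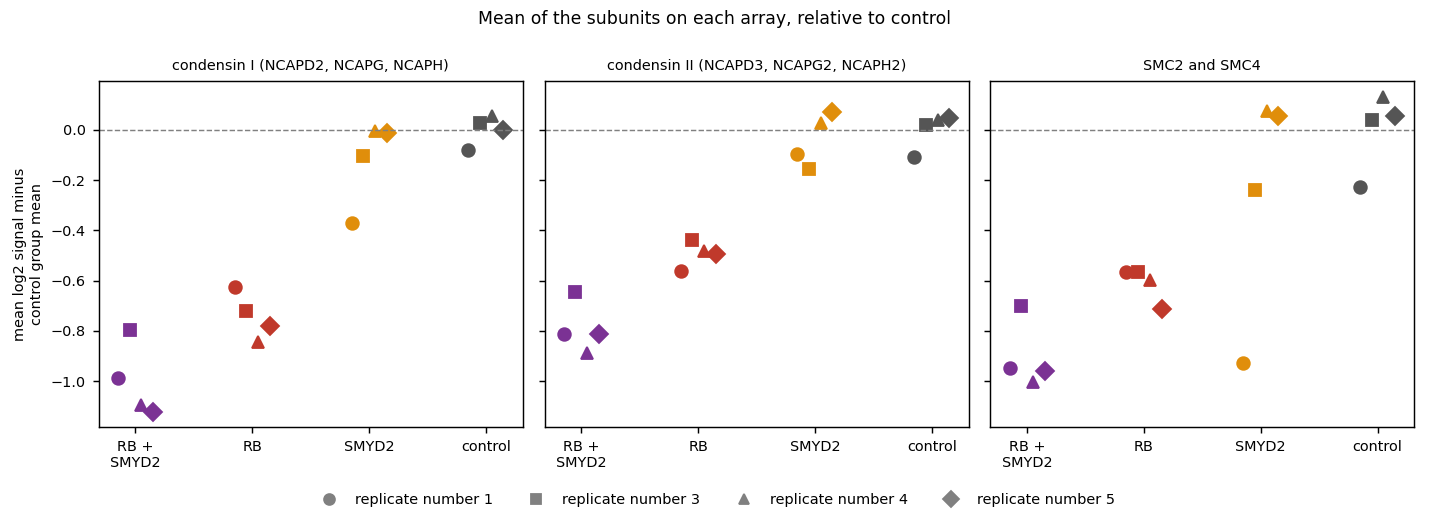
Mean log2 signal of the condensin I subunits, the condensin II subunits and the SMC genes on each array, minus the control group mean (y axis), by group (x axis), with marker shape for the replicate number. The RB plus SMYD2 arrays reach -1.12 for condensin I and -0.89 for condensin II, and SMYD2 array 1 lies at -0.93 for the SMC genes but at -0.10 for condensin II.

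SMYD2 against control gave the effect of SMYD2 in cells with no added RB. None of the 8 genes passed, as none of all genes did (0%), and 0 of the 8 had an unadjusted p under 0.05 in the limma fit, while 572 of the 19775 genes did. The differences ran from -0.26 ± 0.16 for SMC4 to 0.08 ± 0.09 for NCAPH2. The 95% intervals were -0.62 to 0.10 for SMC2, -0.27 to 0.14 for NCAPD2 and -0.18 to 0.14 for NCAPD3. SMC2 read 8.74, 9.43, 9.77 and 9.77 with SMYD2, against 9.46, 9.70, 9.83 and 9.75 in control. Without SMYD2 array 1 the SMC2 and SMC4 differences were -0.03 ± 0.11 and -0.04 ± 0.10, and the median of the 8 genes was -0.035, against -0.15 with all arrays.

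SMYD2 array 1 was not low for every member. It read 8.63 for NCAPH2, above the other SMYD2 arrays at 8.46 to 8.52, and 9.52 for NCAPD3, within their 9.31 to 9.60. NCAPD2 read 10.84 there, against 10.97 to 11.10 on the other SMYD2 arrays. The mean of the 2 SMC genes lay at -0.93 relative to control on that array, and at -0.24, 0.07 and 0.05 on the other SMYD2 arrays.

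The interaction tested whether the difference made by RB depended on SMYD2. No condensin gene passed (limma called 0 of the 8 and 0 of all genes, 0%, with 1 of the 8 and 582 of the 19775 at an unadjusted p under 0.05). That gene was the condensin II kleisin NCAPH2, at -0.32 ± 0.12 (95% interval -0.59 to -0.06, limma adjusted p = 1.00). It was read from 205086_s_at, 1 of the 5 NCAPH2 sets. In the limma fit of every probe set, no other condensin set had an unadjusted p under 0.05. Of all 54675 probe sets, 1565 did. The 16 condensin sets ran from -0.32 to 0.08 in the interaction, so they did not share a direction. NCAPG2 was at -0.28 ± 0.17, NCAPG at -0.21 ± 0.14 and NCAPD3 at -0.16 ± 0.11. NCAPH, NCAPD2, SMC2 and SMC4 were at -0.12 ± 0.16, -0.07 ± 0.14, -0.05 ± 0.24 and -0.01 ± 0.22. The intervals of the SMC genes, -0.56 to 0.45 and -0.49 to 0.46, were the widest. SMYD2 array 1 moved these values by a large amount. Without it the median of the 8 genes was -0.26, against -0.14 with all arrays, and SMC2 and SMC4 were at -0.28 ± 0.15 and -0.23 ± 0.13. NCAPH was then at -0.24 ± 0.13 and NCAPD2 at -0.11 ± 0.13. The 95% intervals of NCAPG2 (-0.70 to -0.08), NCAPG (-0.56 to -0.04) and NCAPH2 (-0.55 to -0.03) lay below zero in that fit, but no gene passed (limma adjusted p = 1.00 for each).

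Separate probe sets of a gene allowed a check within the array. All 16 condensin probe sets had negative differences for RB against control, where 50.5% of all probe sets did, and 7 of the 16 were called lower when adjusted over all 54675 probe sets, where 0.662% were. The RB and control arrays lay apart for 13 of the 16, where 3.71% of all probe sets lay lower without overlap. The second NCAPG probe set, 218663_at, differed by -0.70 ± 0.17, close to the -0.72 of the first, 218662_s_at. The second SMC2 set, 213253_at, differed by -0.58 ± 0.14, and its RB arrays (7.81 to 8.04) lay below its control arrays (8.24 to 8.66). SMC4 had 3 sets, and the dimmest, 215623_x_at, fell by 0.74 ± 0.15 (limma adjusted p = 0.0165), reading 6.75, 6.09, 6.38 and 6.25 with RB, against 7.10, 7.22, 7.08 and 7.05 in control. The third SMC4 set, 201663_s_at, had a wide error, -0.62 ± 0.29, and read 9.60 on SMYD2 array 1 against 10.59 to 11.44 on the other SMYD2 arrays.

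NCAPH2 was the member whose probe sets parted. Its 2 brightest sets, 205086_s_at and 227076_at, differed by -0.39 ± 0.09 and -0.41 ± 0.17 between RB and control, and the dimmer 40640_at, 221633_at and 209718_at by -0.22 ± 0.09, -0.20 ± 0.10 and -0.16 ± 0.08. Between RB plus SMYD2 and RB, 13 of the 16 condensin sets had negative differences, where 47.5% of all probe sets did, and 6 lay lower without overlap, where 1.55% did. The 3 that were not negative were all NCAPH2 sets: the brightest differed by -0.25, the next by -0.10, but the 3 dimmer sets by 0.03, 0.05 and 0.10. Across the 16 arrays the NCAPH2 sets correlated with each other at r = 0.331 to 0.735, the 3 SMC4 sets at 0.664 to 0.941, the 2 NCAPG sets at 0.96 and the 2 SMC2 sets at 0.96. The NCAPH2 results above rest on 205086_s_at alone, unless another of its sets is named.

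**Figure D4:**
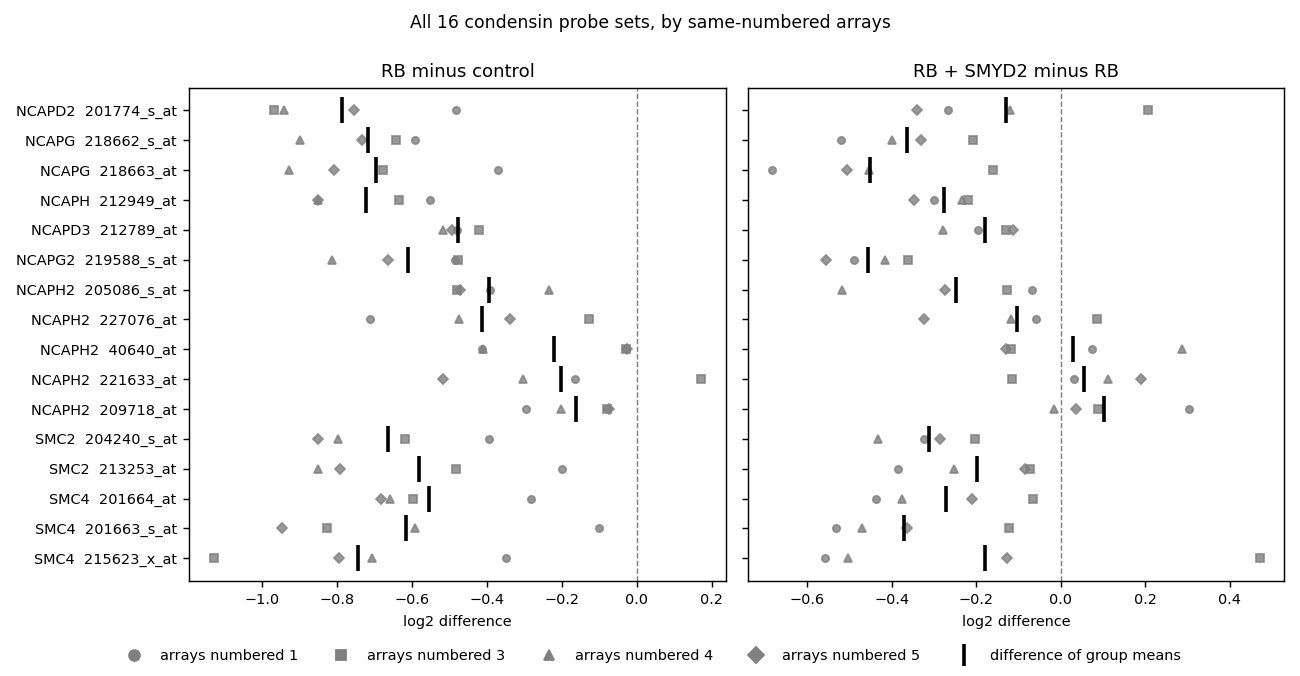
Log2 differences (x axis) of all 16 condensin probe sets (y axis), for RB minus control and RB plus SMYD2 minus RB, as differences of same-numbered arrays (gray markers) and of group means (black bars). All 16 black bars are below zero in the first panel, and the 3 dimmest NCAPH2 sets have bars at 0.03, 0.05 and 0.10 in the second.

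The members followed each other across arrays. Over the 16 arrays, which differ by group, pairs of the 8 genes correlated at r = 0.72 (NCAPH2 with SMC4) to 0.99 (SMC2 with SMC4). With the group means taken off, so that only the spread inside groups was left, SMC2 and SMC4 still correlated at r = 0.97 and NCAPH and NCAPG2 at 0.90. NCAPD2 and NCAPD3 correlated at -0.27, and the median correlation of NCAPH2 with the other members was -0.03. These are descriptions of arrays that share groups, replicate numbers and the low SMYD2 array 1.

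The genes most like the mean of the condensin I subunits over the 16 arrays, among 11824 genes with a mean signal of at least 6, were TTK (r = 0.989), a kinase of the spindle checkpoint, MELK (0.986), DTL (0.985), a substrate receptor of a ubiquitin ligase, NDC80 (0.985), a kinetochore protein, and APOBEC3B (0.984), a cytidine deaminase. Those most like the condensin II mean were FEN1 (r = 0.994), a flap endonuclease of DNA replication, NSD2 (0.992), a histone methyltransferase, FOXM1 (0.988), a transcription factor of mitotic genes, KIF2C (0.987), a microtubule-depolymerising kinesin, and AURKA (0.987), a mitotic kinase. Between RB and control these 10 genes differed by -0.77 (APOBEC3B) to -0.47 (FEN1). These correlations are descriptions, since the arrays share groups and replicate numbers.

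Genes that work with condensin were read from a list. Of 19 measured partners and regulators, 10 fell and 1 rose with RB against control, and 8 did not pass, with a median of -0.67. Of all genes, 1.71% were called lower and 1.24% higher. The gene that rose was RB1 itself, at 1.22 ± 0.31. TOP2A, the topoisomerase that disentangles sister chromatids, fell by 0.78 ± 0.20, MKI67, the coat protein of mitotic chromosomes, by 0.77 ± 0.14, and KIF4A, the chromokinesin that works with condensin I, by 0.72 ± 0.12. The kinesin gene KIF22 fell by 0.67 ± 0.08. Among the mitotic kinases, TTK fell by 0.75 ± 0.11, AURKA by 0.73 ± 0.11, AURKB by 0.71 ± 0.09 and PLK1 by 0.68 ± 0.08.

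The cyclin gene CCNB2 fell by 0.71 ± 0.17 and E2F1 by 0.44 ± 0.09. CCNB1 and CDK1, which form the kinase that activates condensin in mitosis, differed by -0.70 ± 0.22 and -0.60 ± 0.23 (limma adjusted p = 0.119 and 0.221, and with the replicate block 0.0287 and 0.0416). The other 6 partners did not pass: TOP2B, the other type II topoisomerase, differed by 0.02 ± 0.06, AKAP8, a nuclear anchoring protein, by -0.08 ± 0.10, the histone H4 lysine methyltransferase KMT5A by -0.14 ± 0.13, the histone demethylase PHF8 by -0.01 ± 0.08, the casein kinase subunit CSNK2A1 by 0.01 ± 0.07 and E2F3 by -0.04 ± 0.07. Between RB plus SMYD2 and RB, 0 of the 19 genes passed and 18 had negative differences, AURKA at -0.46 ± 0.11 and KIF4A at -0.46 ± 0.12 among them.

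Other complexes built on SMC proteins were set beside condensin. Of 14 cohesin genes, 2 fell with RB against control, where 1.71% of all genes were called lower. The other 12 did not pass, and the median of the list was -0.15. CDCA5, the mitotic cohesin protector sororin, fell by 0.66 ± 0.12 and the core subunit gene SMC1A by 0.33 ± 0.07, while its partner SMC3 differed by -0.63 ± 0.22 and did not pass (limma adjusted p = 0.166). Of the 7 genes of the SMC5/6 complex, which acts in DNA repair, 1 fell, NSMCE4A by 0.37 ± 0.09, while SMC6 and NSMCE2 differed by -0.28 ± 0.11 and -0.25 ± 0.08. That list's median was -0.19. With the replicate block NSMCE2 was called too (limma adjusted p = 0.0287).

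Of 24 mitotic genes outside condensin, 17 fell, where 1.71% of all genes were called lower, and 7 did not pass. The median of the 24 was -0.71, with a range of -0.89 to -0.36. With the replicate block, which also called more genes over the whole array, 22 fell. CENPE, a kinetochore motor, fell by 0.89 ± 0.23, ASPM, a spindle pole protein, by 0.83 ± 0.19 and NUF2, of the outer kinetochore, by 0.78 ± 0.12. The 8 condensin genes, from -0.79 to -0.39, lay inside that range. Without SMYD2 array 1 the counts of genes that fell were 23 of 24 mitotic genes, 12 of 19 partners, 3 of 14 cohesin genes and 1 of 7 SMC5/6 genes, beside 8 of 8 condensin genes and 2.71% of all genes. No test was made between the lists.

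**Figure D5:**
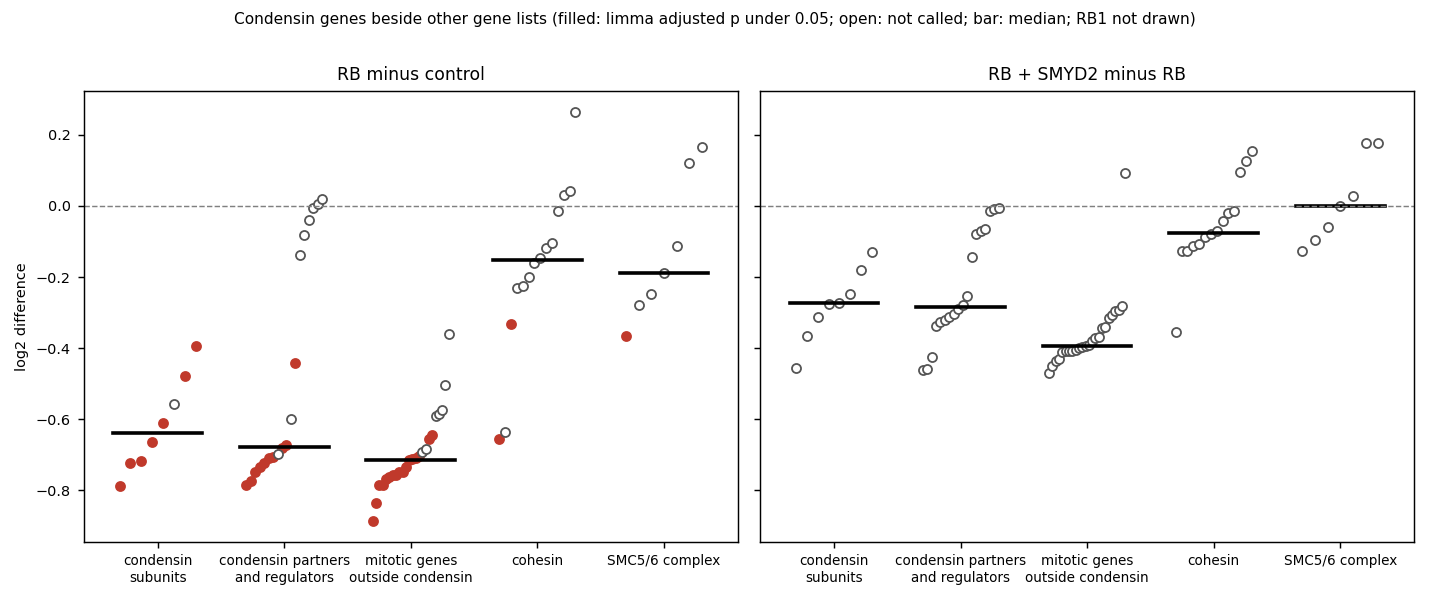
Log2 differences (y axis) of each gene of 5 lists (x axis) for RB minus control and RB plus SMYD2 minus RB, filled where the adjusted p was under 0.05, with a bar for the list's median and without RB1. In the first panel 7 of 8 condensin genes and 17 of 24 mitotic genes are filled, against 2 of 14 cohesin and 1 of 7 SMC5/6 genes. Of all genes, 1.71% were called lower there. No point is filled in the second panel.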

How the data were processed

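Expression was read on the U133 Plus 2.0 human array of Affymetrix, 1 array for each sample. The authors deposited log2 signals from RMA, per the submitters' processing notes. The RMA version, and whether it ran on all arrays at once, are not given in the sources used. RMA keeps no detection call. Precision is limited by the number of arrays.

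Of the probe sets, 41097 carried 1 gene symbol, 1801 several and 11777 none. A gene's probe set of highest mean signal stood for it, which gave 19775 genes, none filtered for low signal. Within groups, arrays correlated at 0.981 to 0.998 and shared at most 0.0750% of their values, so none was taken as a copy. Differences were tested with limma 3.58.1 in R 4.3.3 on all 16 arrays, with a mean for each group and a two-sided moderated test with mean-variance trend. In each of 7 comparisons p-values were Benjamini-Hochberg adjusted over all genes, with a threshold of 0.05. Errors are standard errors of the fit unless SD is named. The fit was tested on a simulated run of RB against control. It recovered 62% of 100 genes lowered by 0.5 and 96% of 100 genes lowered by 1, with 14 false calls. Smaller changes were not simulated.

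Apart from the checks and the cell type markers, the genes named are the 8 members, the partners, the 3 largest differences of each other list in RB against control, and the 5 most alike in pattern. The members and lists were chosen with earlier results of these data known. The lists also held 8 osteoblast markers, of which 2 rose with RB, SPP1 (0.83 ± 0.16) and SPARC (0.81 ± 0.16), where 1.24% of all genes were called higher. The largest difference among the 8, 0.94, was of another marker, which did not pass. With the replicate block, which called more genes over the whole array, 3 of the 8 were called higher.

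Same-numbered arrays deviated together from their group means for 5 of the 6 pairs of groups, where each correlation was above 0.1 (lowest 0.145). For RB with SMYD2 the correlations were 0.19, 0.43, 0.25 and -0.08 for numbers 1, 3, 4 and 5. Blocking on the replicate number (the replicate block) is reported where it changes the call of a member gene on its brightest probe set. For single probe sets and the other lists it is reported only in part. In RB against control, 218663_at of NCAPG and 213253_at of SMC2 were among the sets called lower only with the block. Figures were drawn with matplotlib 3.10.9.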

Additional observations from a re-analysis of the deposited data

How the results depend on the processing

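The direction of all 8 condensin genes held under each alternative and with each array left out for RB against control, RB plus SMYD2 against SMYD2, RB plus SMYD2 against control, RB against SMYD2 and RB plus SMYD2 against RB, read on the brightest probe set or the mean of a gene's sets. With every probe set fitted, the 3 dimmest NCAPH2 sets were positive in RB plus SMYD2 against RB (0.03, 0.05 and 0.10). The alternatives were the mean of a gene's probe sets, a fit of every probe set, 2 further scalings, a filter on genes with a mean below 6, array weights, no trend, the groups compared alone (not possible for the interaction) and the replicate block. With each array left out, the count of condensin genes called was 5 to 8 for RB against control (5 without RB array 1 or 5 or control array 3, 4 or 5, in place of 7) and 6 to 8 for RB plus SMYD2 against SMYD2, 8 for RB plus SMYD2 against control and 0 for SMYD2 against control, RB plus SMYD2 against RB and the interaction.

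RB against SMYD2 depended most on the fit, with 5 to 8 genes called with an array left out (8 without SMYD2 array 1), 8 with array weights and 2 with those groups alone, in place of 5. RB plus SMYD2 against SMYD2 with its groups alone called 6, without SMC2 (limma adjusted p = 0.0964) and SMC4 (0.162). With the replicate block the counts were 8 for RB against control, 6 for RB against SMYD2, 8 for RB plus SMYD2 against SMYD2 and against control, and 0 for the rest. The block changed the calls of SMC4 in RB against control and of NCAPG2 in RB against SMYD2, and of no other member. For RB with SMYD2 the lowest correlation of same-numbered arrays was -0.08. SMC2 in RB against control was not called with arrays centred on their medians (limma adjusted p = 0.0514) or with every probe set fitted (0.0754), where SMC4 was called through its dimmest set. Signs turned only near zero. NCAPD3 in SMYD2 against control was 0.0010 with quantile normalization repeated and -0.056 to 0.040 with an array left out, and the interaction ranged from -0.14 to 0.0047 for NCAPD2, -0.28 to 0.061 for SMC2 and -0.23 to 0.098 for SMC4. The causes were not tested. Over all genes, RB against control called 585, 1399 with the block, 2296 with array weights and 286 to 984 with an array left out. RB plus SMYD2 against SMYD2 called 1422, and then 2812, 3141 and 859 to 1753, and 748 with those groups alone. RB plus SMYD2 against control called 1424, and then 2562, 3687 and 899 to 2032, and RB against SMYD2 called 642, and then 1831, 1790 and 304 to 888, and 193 with those groups alone. The list counts without SMYD2 array 1 were chosen after seeing the data.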
